A study of Homo sapiens with 16 samples.

Results

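The response of human myeloma cells to silencing of CD86 was compared between a pair of unrelated lines, MM.1s and KMS18, and a pair of RPMI8226 backgrounds, RPMI8226 itself and RPMI8226-Mcl1, which overexpresses the anti-apoptotic protein Mcl1. In each background 1 RNA-seq library came from cells given a short hairpin RNA (shRNA) against CD86, 1 from cells given the empty pLKO.1 vector (Vec) and 1 from cells given a shRNA against Gapdh as a control. These 12 libraries of the 16 in the series were used, and the other 4, with a CD28 shRNA, served for a single added contrast. The response of a gene in a background was its log2(FPKM + 1) with CD86 shRNA minus the mean of that value with Vec and with Gapdh shRNA, FPKM being the fragments of a gene divided by its exon length and by library depth. The genes described are the 5827 of 23459 in the deposited table whose mean FPKM over Vec and Gapdh shRNA was at least 5 in each of the 4 backgrounds. FAM98C, with 5.002 FPKM in its lowest background, was just inside this limit, and RAP1GDS1, with 4.999, was just outside. MM.1s, KMS18 and RPMI8226 are established plasma cell lines, and only RPMI8226-Mcl1 carries an added gene. It derives from RPMI8226, so the pair holds 1 parental line and not 2 independent ones. Each combination of background and shRNA is 1 library, and neither the number nor the sequences of the hairpins are stated in the labels.

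CD86 and CD80 are the B7 ligands of CD28, a co-stimulatory receptor best known from T cells, where its engagement activates phosphatidylinositol 3-kinase and supports survival. Myeloma cells, which are malignant plasma cells, can carry both CD28 and CD86, so the ligand and the receptor can meet on the tumour cells themselves. Plasma cells secrete large amounts of antibody and depend on the unfolded protein response, which matches the folding capacity of the endoplasmic reticulum to the load of secretory protein, and on amino acid import and glycosylation.

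The 12 libraries held 4509899 to 5900955 reads assigned to genes. Plasma cell genes (SDC1, PRDM1, IRF4, XBP1, MZB1 and TNFRSF17) were present in all 4 backgrounds. CD38, another plasma cell gene, was low in KMS18, at 1.92 to 3.56 FPKM, against 7.77 to 23.1 elsewhere. The plasma cell surface receptor gene SLAMF7 differed between the pairs, with 74.9 to 155 FPKM in MM.1s and 105 to 152 in KMS18 against 0.863 to 1.55 in RPMI8226 and 0.117 to 0.976 in RPMI8226-Mcl1. FGFR3, a receptor tyrosine kinase, had 539 to 661 FPKM in KMS18 and at most 1.04 elsewhere. MAF, a transcription factor, had at most 0.104 FPKM in KMS18 and 160 to 261 elsewhere. Of the markers of other cell types, the T cell receptor complex genes CD3D and CD3G, the myeloid enzyme gene MPO and the stromal matrix genes COL3A1, DCN and LUM were at 0 in all 12 libraries. The summed level of 6 myeloid markers was 0.762 to 9.71 FPKM with CD86 shRNA in MM.1s and KMS18 and 41.6 to 75.0 in the RPMI8226 backgrounds, against 0.612 to 88.9 in control libraries, and came mostly from the lysosomal membrane gene CD68. The sum of 8 T cell markers was 1.34 to 1.35 FPKM with CD86 shRNA in MM.1s and KMS18 and 3.46 to 3.95 in the RPMI8226 backgrounds, against 0.314 to 6.72 in control libraries, and the sum of 6 stromal markers was at most 0.841. CD8B, a T cell coreceptor gene outside these sums, had 207 to 295 FPKM in the RPMI8226 backgrounds, with or without CD86 shRNA, and at most 0.159 in MM.1s and KMS18. FN1, the fibronectin gene, a stromal marker also outside these sums, had at most 2.59 FPKM in MM.1s and KMS18 and 218 to 435 in the RPMI8226 backgrounds. In such bulk libraries fewer cells of a kind and less RNA per cell cannot be told apart.

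CD86 itself, the targeted gene, fell in MM.1s and KMS18. It had 1.40 FPKM with CD86 shRNA in MM.1s, against 3.18 with Vec and 6.46 with Gapdh shRNA. In KMS18 CD86 had 1.10 FPKM with CD86 shRNA, against 2.49 with Vec and 3.45 with Gapdh shRNA. In RPMI8226 CD86 had 5.28 FPKM with CD86 shRNA, against 6.92 with Vec and 6.51 with Gapdh shRNA. In RPMI8226-Mcl1 it had 2.86 FPKM with CD86 shRNA, against 5.80 with Vec and 5.46 with Gapdh shRNA. Every CD86 shRNA library was below both controls of its background, and the level left was 29.1% of the control mean in MM.1s and 37.1% in KMS18, against 78.6% in RPMI8226 and 50.9% in RPMI8226-Mcl1. These levels rest on few reads, 18 to 106 per CD86 shRNA library. The mean response was -1.06 in MM.1s and KMS18 (limma adjusted p = 0.0188) and -0.54 in the RPMI8226 backgrounds (limma adjusted p = 0.274). Without MM.1s, KMS18, RPMI8226 or RPMI8226-Mcl1 the call in MM.1s and KMS18 was lost, with limma adjusted p of 0.059 to 0.083. The difference between the pairs was -0.52 on the log2 scale (SE 0.31, limma adjusted p = 0.568), and so did not pass. An exact two-sided permutation test over the 4 responses gave p = 0.333, the smallest that 2 against 2 allows, so it cannot reach the threshold of 0.05 and says nothing about this difference. Control choice moved this difference, which was -0.19 with Vec as the only control and -0.86 with Gapdh shRNA as the only control. Relative to the mean of both controls, CD86 thus lay lower in both MM.1s and KMS18 than in either RPMI8226 background. Against Vec alone on the log2(FPKM + 1) scale, it fell about as much in RPMI8226-Mcl1 as in MM.1s and KMS18. The part of unequal silencing in the differences given here was not tested.

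**Figure D1:**
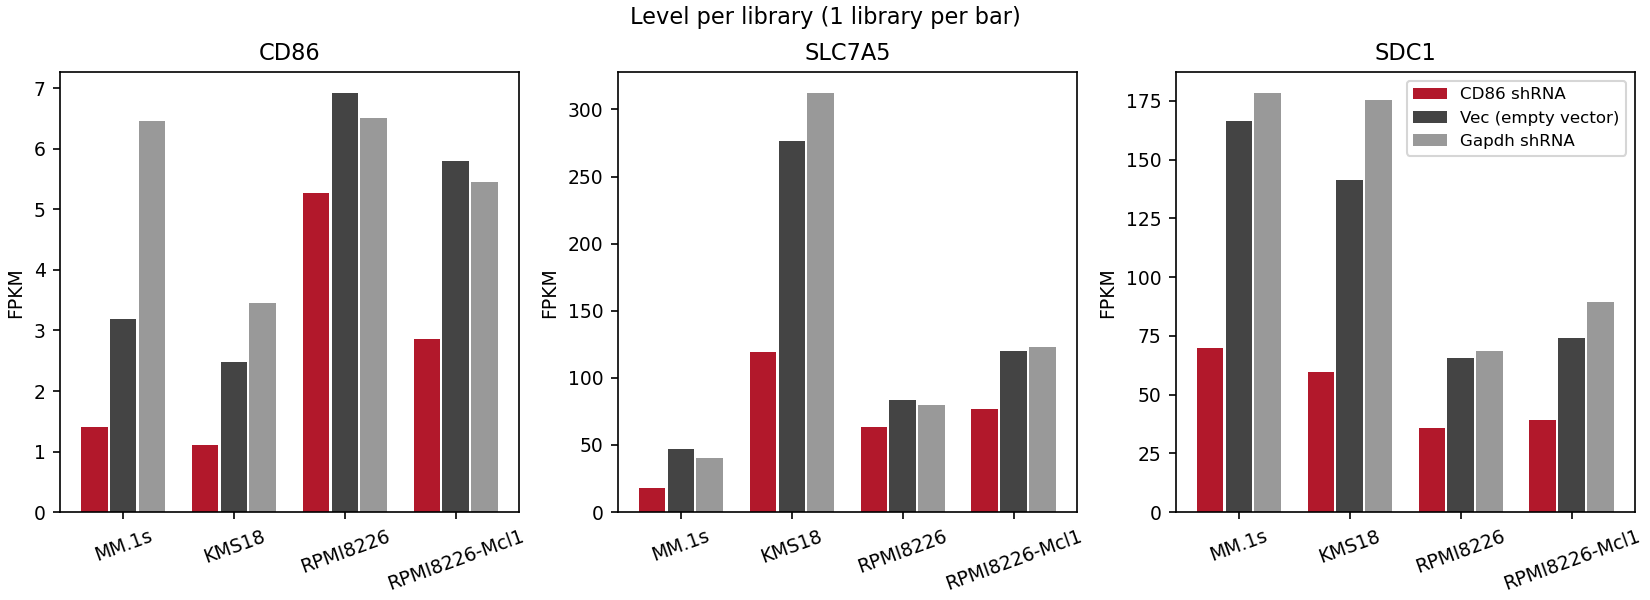
Level in FPKM (vertical axes, linear, from 0) of CD86, SLC7A5 and SDC1 in each of 12 libraries, 1 bar per library, with CD86 shRNA, Vec and Gapdh shRNA from left to right within each background. All CD86 shRNA bars lie below both controls of their background, and the SLC7A5 bar of KMS18 is at 119 FPKM with CD86 shRNA against 276 with Vec and 312 with Gapdh shRNA.

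More genes passed the test in MM.1s and KMS18 than in the RPMI8226 backgrounds. In MM.1s and KMS18, 516 of the 5827 genes passed at a limma adjusted p under 0.05, which is 8.86% of the genes described against 6.45% of all 11313 genes tested. Of these 156 rose (2.68%, against 2.55% of all genes tested) and 360 fell (6.18%, against 3.91%). In the RPMI8226 backgrounds 77 of the genes passed, which is 1.32% against 0.955% of all genes tested. Of these 10 rose (0.172%, against 0.141%) and 67 fell (1.15%, against 0.813%). Of the genes called, 62 were called in both pairs, and each of these moved in the same direction in both, which makes 12% of the calls in MM.1s and KMS18 and 80.5% of those in the RPMI8226 backgrounds. Passing in one pair and missing in the other does not show that the responses differ, and most genes called in MM.1s and KMS18 leaned the same way in the other pair. Of the 360 that fell in MM.1s and KMS18, 328 had a mean response below 0 in the RPMI8226 backgrounds, with a median response of -0.52 in MM.1s and KMS18 and -0.26 in the RPMI8226 backgrounds. Of the 156 that rose, 119 had a mean above 0 in the RPMI8226 backgrounds, with a median of 0.38 in MM.1s and KMS18 and 0.10 in the RPMI8226 backgrounds. Because these genes were picked by their value in MM.1s and KMS18, a smaller median in the other pair is built into the choice. The 67 genes that fell in the RPMI8226 backgrounds had a median of -0.66 in MM.1s and KMS18, against -0.59 in the backgrounds they were picked in.

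The counts depend on how the spread is taken. With the 4 responses as the only values, limma called 0 genes in either pair, with 2127 genes of those tested at an unadjusted p under 0.05 in MM.1s and KMS18 and 1236 in the RPMI8226 backgrounds. The count over all genes tested was 730 in MM.1s and KMS18 and became 371 without MM.1s, 363 without KMS18, 263 without RPMI8226 and 308 without RPMI8226-Mcl1. It was 108 in the RPMI8226 backgrounds, and became 4 without RPMI8226 and 1 without RPMI8226-Mcl1, so those calls rest on having both RPMI8226 backgrounds. Of the 730 calls 39.5% were higher, and of the 108 calls 14.8% were higher. With limma-voom on reads 55.4% of 1466 calls were higher in MM.1s and KMS18 and 33.0% of 309 in the RPMI8226 backgrounds. Fitted 1 background at a time, a count added after the data were seen, 54 genes rose in MM.1s (0.927%, against 0.804% of all genes tested) and 117 fell (2.01%, against 1.33%). In KMS18 alone 12 rose (0.206%, against 0.327%) and 141 fell (2.42%, against 1.56%). In RPMI8226 alone 0 rose and 0 fell by limma (0.0177% of all genes tested fell), and in RPMI8226-Mcl1 alone 0 rose (0.00884% of all genes tested) and 10 fell (0.172%, against 0.115%). The SD of the responses over the 5827 genes was 0.298 in MM.1s and 0.286 in KMS18, against 0.211 in RPMI8226 and 0.230 in RPMI8226-Mcl1. The SD of Gapdh shRNA minus Vec over the same genes was 0.232 in MM.1s and 0.207 in KMS18, against 0.187 in RPMI8226 and 0.192 in RPMI8226-Mcl1, so the 2 controls also lay farther apart in the first pair.

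**Figure D2:**
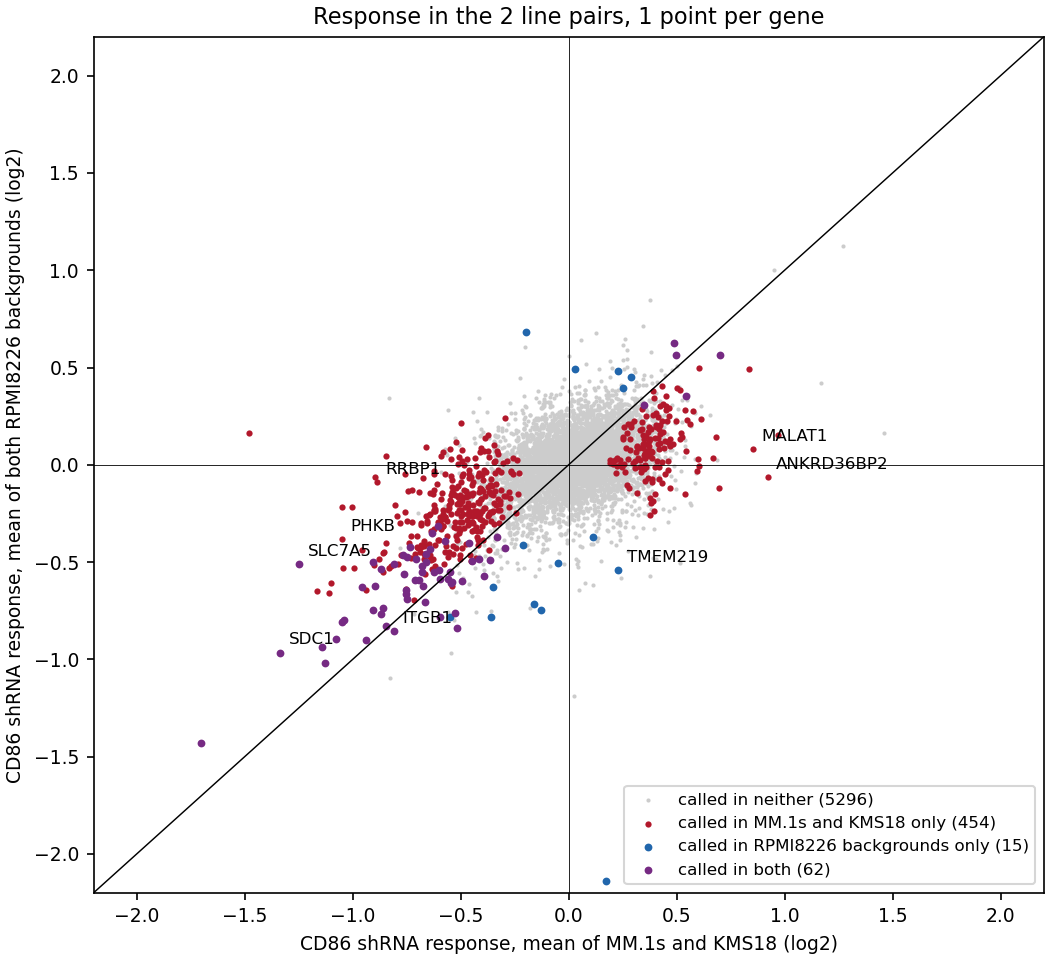
CD86 shRNA response of 5827 genes, 1 point per gene, as log2(FPKM + 1) minus the mean of both controls, with the mean of MM.1s and KMS18 on the horizontal axis and the mean of both RPMI8226 backgrounds on the vertical axis. The diagonal marks equal responses. Of the genes, 454 were called in MM.1s and KMS18 alone, 15 in the RPMI8226 backgrounds alone, 62 in both and 5296 in neither, and the genes called in both lie near the diagonal below 0 for the most part.

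Some of the wide falls were called in both pairs. CCDC167, which encodes a small coiled-coil membrane protein, had responses of -1.65 in MM.1s and -1.75 in KMS18, against -1.26 in RPMI8226 and -1.60 in RPMI8226-Mcl1, and fell in both pairs (limma adjusted p = 0.000328 in MM.1s and KMS18 and 0.00486 in the RPMI8226 backgrounds). SDC1, which encodes the plasma cell surface proteoglycan syndecan-1 (CD138), had 69.9 FPKM with CD86 shRNA in MM.1s, against 166 with Vec and 178 with Gapdh shRNA. It had 59.7 FPKM with CD86 shRNA in KMS18, against 141 with Vec and 175 with Gapdh shRNA. In RPMI8226 SDC1 had 35.8 FPKM with CD86 shRNA, against 65.5 with Vec and 68.7 with Gapdh shRNA, and in RPMI8226-Mcl1 it had 39.0 FPKM, against 74.3 and 89.6. The CD86 shRNA library was the lowest of its background in all 4. SDC1 fell in both pairs, by 1.33 in MM.1s and KMS18 and by 0.97 in the RPMI8226 backgrounds, and the difference of -0.37 between them (SE 0.14) did not pass (limma adjusted p = 0.401). ITGB1, the beta-1 integrin, fell by 0.81 in MM.1s and KMS18 and by 0.86 in the RPMI8226 backgrounds, a difference of 0.05 (SE 0.18). RRN3, an initiation factor of RNA polymerase I, fell by 1.05 in MM.1s and KMS18 and by 0.81 in the RPMI8226 backgrounds. CD70, a ligand of the tumour necrosis factor family, rose by 0.70 in MM.1s and KMS18 and by 0.56 in the RPMI8226 backgrounds. CCDC167, RRN3 and CD70 were picked after their values were seen.

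The difference between the pairs was then tested directly, as the mean response of MM.1s and KMS18 minus that of both RPMI8226 backgrounds. No gene passed. The count was 0 of the 5827 genes described and 0 of the 11313 tested (0% called), with a lowest limma adjusted p of 0.132. At an unadjusted p under 0.05 there were 317 genes with a higher response in MM.1s and KMS18 (5.44%, against 5.62% of all genes tested) and 345 with a lower one (5.92%, against 5.19%), together 11.4% of the genes described against 10.8% of all genes tested. The same contrast between the controls, Gapdh shRNA minus Vec, gave 0 calls and 241 genes at an unadjusted p under 0.05, 4.14% of the genes described against 4.82% of all genes tested. That fit held 8 libraries and 2 residual degrees of freedom, against 12 and 6 for CD86 shRNA. The counts of the 2 fits therefore differ in power and cannot be compared directly. With limma-voom on reads 20 of the genes described passed (0.343%, against 30 or 0.265% of all genes tested), 8 with a higher and 12 with a lower response, and 17 of these are among the 24 genes named next. For 1200 genes (20.6%) both MM.1s and KMS18 lay above both RPMI8226 backgrounds and for 1249 (21.4%) both lay below, against 21.3% and 19.5% of all genes tested. For Gapdh shRNA minus Vec these counts were 861 (14.8%) and 1099 (18.9%), against 15.4% and 18.9% of all genes tested. The median size of a difference was 0.134 and the median SE 0.146, so a typical difference was of the size of its error. Of the genes described, 326 had responses above 0 in MM.1s and KMS18 and below 0 in both RPMI8226 backgrounds, and 315 had the opposite signs, while 1049 were above 0 and 929 below 0 in all 4.

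Genes were named next only if both MM.1s and KMS18 lay on 1 side of both RPMI8226 backgrounds. The 12 of these with the smallest p for a lower response in MM.1s and KMS18 had differences of -0.83 to -0.53. Their limma adjusted p was 0.132 to 0.167, so none passed. All 12 fell within MM.1s and KMS18, and 1, SLC7A5, also fell within the RPMI8226 backgrounds. SLC7A5, which pairs with SLC3A2 to import large neutral amino acids, had 18.3 FPKM with CD86 shRNA in MM.1s, against 46.7 with Vec and 40.2 with Gapdh shRNA. In KMS18 SLC7A5 had 119 FPKM with CD86 shRNA, against 276 with Vec and 312 with Gapdh shRNA. In RPMI8226 SLC7A5 had 63.5 FPKM with CD86 shRNA, against 83.4 with Vec and 79.9 with Gapdh shRNA, and in RPMI8226-Mcl1 76.5 FPKM, against 120 and 123. SLC7A5 was thus lowest with CD86 shRNA in every background, and its 2 lowest responses, -1.20 in MM.1s and -1.29 in KMS18, lie apart from -0.36 in RPMI8226 and -0.66 in RPMI8226-Mcl1 (difference -0.74, SE 0.13).

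SLC1A4, a neutral amino acid transporter, had 48.9 FPKM with CD86 shRNA in MM.1s, against 87.2 with Vec and 90.1 with Gapdh shRNA. In KMS18 SLC1A4 had 33.2 FPKM with CD86 shRNA, against 52.0 with Vec and 55.1 with Gapdh shRNA. In RPMI8226 SLC1A4 had 47.6 FPKM with CD86 shRNA, against 49.7 with Vec and 47.5 with Gapdh shRNA, and in RPMI8226-Mcl1 41.6, against 45.5 and 41.8. The SLC1A4 level with CD86 shRNA was clearly below the controls in MM.1s and KMS18 and next to them in the RPMI8226 backgrounds (difference -0.71, SE 0.10). It passed the test of the pair difference with limma-voom (adjusted p = 0.00221) and with a pseudocount of 5 (adjusted p = 0.0416). SLC19A1, the reduced folate carrier, had responses of -0.50 in MM.1s and -0.67 in KMS18, against 0.15 in RPMI8226 and -0.02 in RPMI8226-Mcl1. SLCO4A1, an organic anion transporter, had -0.68 in MM.1s and -0.57 in KMS18, against -0.15 in RPMI8226 and 0.08 in RPMI8226-Mcl1.

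Genes of the endoplasmic reticulum and cytoskeleton follow. RRBP1, a ribosome-binding protein of the rough endoplasmic reticulum, had 50.7 FPKM with CD86 shRNA in MM.1s, against 88.2 with Vec and 95.5 with Gapdh shRNA. In KMS18 RRBP1 had 43.6 FPKM with CD86 shRNA, against 73.1 with Vec and 96.1 with Gapdh shRNA. In RPMI8226 RRBP1 had 62.2 FPKM with CD86 shRNA, against 68.5 with Vec and 66.1 with Gapdh shRNA, and in RPMI8226-Mcl1 56.2, against 56.8 and 61.1. The gap to the controls was wide in MM.1s and KMS18 and narrow in the RPMI8226 backgrounds (difference -0.80, SE 0.14). DIAPH1, a formin that nucleates actin filaments, had 25.5 FPKM with CD86 shRNA in MM.1s, against 43.2 with Vec and 41.8 with Gapdh shRNA. In KMS18 DIAPH1 had 34.4 FPKM with CD86 shRNA, against 50.4 with Vec and 50.1 with Gapdh shRNA. In RPMI8226 DIAPH1 had 40.6 FPKM, against 42.7 and 41.8 in the controls, and in RPMI8226-Mcl1 35.3, against 36.6 and 35.7. The spread between the 2 controls of DIAPH1 was small in every background beside the gap to CD86 shRNA in MM.1s and KMS18. HSPA8, the constitutive cytosolic HSP70 chaperone, had responses of -0.66 in MM.1s and -0.43 in KMS18, against 0.12 in RPMI8226 and -0.06 in RPMI8226-Mcl1. ZMPSTE24, the protease that processes prelamin A, had -0.53 in MM.1s and -0.46 in KMS18, against 0.02 in RPMI8226 and 0.13 in RPMI8226-Mcl1. PHKB, a regulatory subunit of phosphorylase kinase, lay below 0 in all 4, at -1.06 in MM.1s and -1.04 in KMS18, against -0.29 in RPMI8226 and -0.48 in RPMI8226-Mcl1. KCNA3, a voltage-gated potassium channel, and TMEM109, a membrane protein, were also among the 12. Over these genes the same pair difference between Gapdh shRNA and Vec ran from -0.16 to 0.23.

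By the same rule, the 12 genes with the smallest p for a higher response in MM.1s and KMS18 had differences of 0.40 to 0.98. Their limma adjusted p was 0.132 to 0.206, and none passed. Of these, 9 rose within MM.1s and KMS18, and TMEM219 and UBE2J1 fell within the RPMI8226 backgrounds instead. ISCU, the scaffold on which mitochondrial iron-sulfur clusters are built, had 116 FPKM with CD86 shRNA in MM.1s, against 89.0 with Vec and 84.6 with Gapdh shRNA. In KMS18 ISCU had 32.6 FPKM with CD86 shRNA, against 24.1 with Vec and 23.2 with Gapdh shRNA. In RPMI8226 ISCU had 56.6 FPKM with CD86 shRNA, against 63.7 with Vec and 64.0 with Gapdh shRNA, and in RPMI8226-Mcl1 57.2, against 57.6 and 58.1. ISCU was above both controls in MM.1s and KMS18 and below both in the RPMI8226 backgrounds, narrowly so in RPMI8226-Mcl1 (difference 0.53, SE 0.09). MALAT1, a nuclear long noncoding RNA, had 191 FPKM with CD86 shRNA in MM.1s, against 82.3 with Vec and 89.9 with Gapdh shRNA. In KMS18 MALAT1 had 99.5 FPKM with CD86 shRNA, against 65.5 with Vec and 68.0 with Gapdh shRNA. In RPMI8226 MALAT1 had 132 FPKM, against 135 and 120 in the controls, and in RPMI8226-Mcl1 112, against 109 and 99.2. MALAT1 stood out in MM.1s most and lay between the controls in RPMI8226 (difference 0.77, SE 0.16). Over the 12 genes the same pair difference between Gapdh shRNA and Vec ran from -0.13 to 0.24, the highest being that of MALAT1.

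TMEM219, a receptor of the insulin-like growth factor binding protein IGFBP3, had 26.4 FPKM with CD86 shRNA in MM.1s, against 23.2 with Vec and 24.6 with Gapdh shRNA. In KMS18 TMEM219 had 39.4 FPKM with CD86 shRNA, against 32.1 with Vec and 30.6 with Gapdh shRNA. In RPMI8226 TMEM219 had 42.9 FPKM with CD86 shRNA, against 71.2 with Vec and 64.8 with Gapdh shRNA, and in RPMI8226-Mcl1 37.6, against 48.3 and 54.1. It was the reverse of SLC1A4 in that the RPMI8226 backgrounds moved, with a fall of 0.54 there (limma adjusted p = 0.0199) and a response of 0.23 in MM.1s and KMS18 (limma adjusted p = 0.136). UBE2J1, an E2 ubiquitin-conjugating enzyme of endoplasmic reticulum-associated degradation, likewise fell by 0.37 in the RPMI8226 backgrounds and had 0.11 in MM.1s and KMS18. POU2AF1, the B cell coactivator OCA-B, had responses of 0.18 in MM.1s and 0.43 in KMS18, against -0.33 in RPMI8226 and -0.13 in RPMI8226-Mcl1. QARS, the glutaminyl-tRNA synthetase, SLC25A25, a mitochondrial ATP-Mg/phosphate carrier, TRAPPC1, a subunit of a vesicle tethering complex, PCMTD2 and C11orf68 had differences of 0.40 to 0.64. ANKRD36BP2, a pseudogene transcript, and RAB30-AS1, an antisense RNA, had 0.98 and 0.82. The strand setting of the counting is not stated in the labels, so reads of RAB30-AS1 and of its partner on the other strand cannot be told apart, and reads of ANKRD36BP2 may be shared with its parent family.

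**Figure D3:**
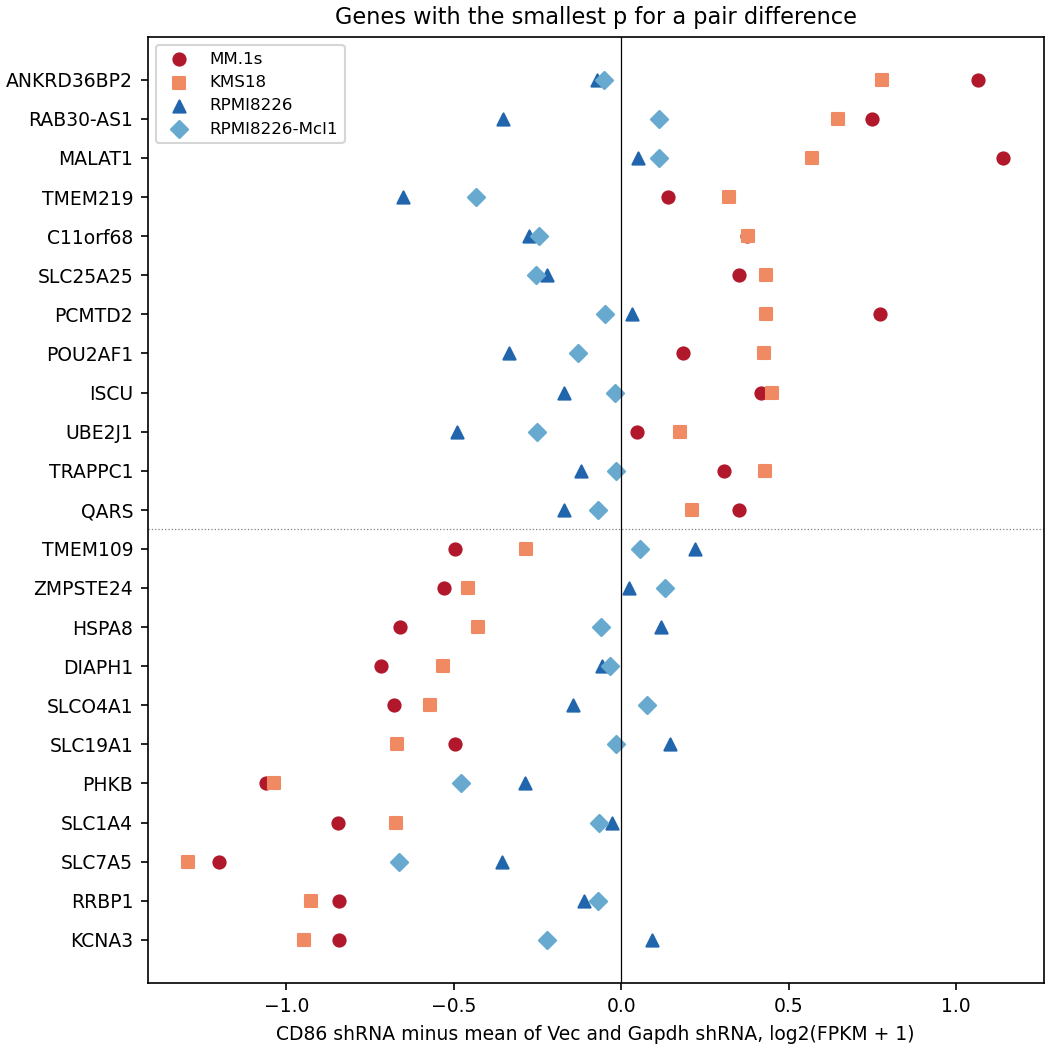
CD86 shRNA response, as log2(FPKM + 1) minus the mean of both controls (horizontal axis), of the 12 genes with the smallest p for a higher response in MM.1s and KMS18 (above the dotted line) and of 11 of the 12 for a lower one (below it), 1 point per background. The MM.1s and KMS18 points lie outside the range of the RPMI8226 points by the rule that chose the genes, and none of the 23 shown passed the adjusted test.

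Genes of the unfolded protein response, the list with the most calls, fell together. Of 23 tested genes of this list, 17 fell in MM.1s and KMS18 and 2, MANF and PDIA4, fell in the RPMI8226 backgrounds, and none rose. By comparison 3.91% of all genes tested fell in MM.1s and KMS18 and 0.813% in the RPMI8226 backgrounds. Each list here and below is counted over all its genes tested, including those below the 5 FPKM limit. The median response was -0.45 in MM.1s and -0.61 in KMS18, against -0.25 in RPMI8226 and -0.33 in RPMI8226-Mcl1, where the median of all genes tested was 0.04, 0.00, 0.02 and 0.01 in the same order. All 23 lay below 0 as a mean of the RPMI8226 backgrounds and 21 as a mean of MM.1s and KMS18, so the direction was shared. In 14 of the 23 (60.9%) both MM.1s and KMS18 lay below both RPMI8226 backgrounds and in 0 both lay above, against 19.5% and 21.3% of all genes tested. None passed the test of the pair difference, with a lowest limma adjusted p of 0.254, and 8 were lower at an unadjusted p under 0.05. After rescaling the libraries 18 fell in MM.1s and KMS18 and 2 in the RPMI8226 backgrounds, and with limma-voom 21 and 8. Of all 11313 genes tested 528 and 124 fell after rescaling, and 654 and 207 with limma-voom.

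HSPA5, the endoplasmic reticulum chaperone BiP, had 127 FPKM with CD86 shRNA in MM.1s, against 201 with Vec and 205 with Gapdh shRNA. In KMS18 HSPA5 had 207 FPKM with CD86 shRNA, against 271 with Vec and 323 with Gapdh shRNA. In RPMI8226 HSPA5 had 302 FPKM with CD86 shRNA, against 338 with Vec and 359 with Gapdh shRNA, and in RPMI8226-Mcl1 239, against 286 and 317. HSPA5 was below both controls in all 4 and fell in MM.1s and KMS18 by 0.59 (limma adjusted p = 0.00285), with -0.27 in the RPMI8226 backgrounds (limma adjusted p = 0.150). CANX, the lectin chaperone calnexin, had 129 FPKM with CD86 shRNA in MM.1s, against 192 with each control. In KMS18 CANX had 273 FPKM with CD86 shRNA, against 327 with Vec and 371 with Gapdh shRNA. In RPMI8226 CANX had 216 FPKM with CD86 shRNA, against 208 with Vec and 226 with Gapdh shRNA, and in RPMI8226-Mcl1 157, against 166 and 178. CANX had the smallest p of the list for a pair difference, at -0.39 (SE 0.11, limma adjusted p = 0.254), and it lay between its controls in RPMI8226. HSP90B1, the chaperone GRP94, had responses of -0.45 in MM.1s and -0.47 in KMS18, against -0.25 in RPMI8226 and -0.34 in RPMI8226-Mcl1. CALR, calreticulin, had -0.44 in MM.1s and -0.34 in KMS18, against -0.22 in RPMI8226 and -0.22 in RPMI8226-Mcl1. MANF, a secreted endoplasmic reticulum stress protein, fell by 0.73 in MM.1s and KMS18 and by 0.42 in the RPMI8226 backgrounds, and PDIA4, a disulfide isomerase, by 0.63 and 0.35. XBP1, a transcription factor of this response, did not pass in either pair, with a mean of -0.22 in MM.1s and KMS18 and -0.22 in the RPMI8226 backgrounds.

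The promoters of 4 of these chaperones are shown because the genes moved together and each holds the endoplasmic reticulum stress element (ERSE), the motif bound by ATF6 with NF-Y. The element was searched as CCAAT and CCACG separated by 9 bases, on both strands, in the 300 bases from 250 before to 50 after the gene start, and is in capitals below, in the sequence or as its reverse complement. It was present in 6 of the 22 promoters of the list that matched a RefSeq entry (27.3%), those of HSPA5, CANX, HSP90B1, CALR, CRELD2 and XBP1, against 14 of 8462 promoters of genes tested (0.165%). The shorter form, ATTGG and CCACG separated by 1 base, was present in 3 of the 22 (13.6%), against 11 of 8462 (0.13%). MANF and PDIA4, called in both pairs, held neither form, and XBP1, which holds the first, passed in neither pair. The list was made of known genes of the response that this element serves, so these shares are not a result of CD86 silencing. A match describes the letters in this window and not binding of a factor. The sequences are from RefSeq, build GRCh38.p14, written 5′ to 3′ on the strand of the gene. HSPA5 is at chr9:125241294-125241593 on the minus strand, CANX at chr5:179698679-179698978, HSP90B1, with 2 matches, at chr12:103930160-103930459 and CALR at chr19:12938359-12938658, these 3 on the plus strand.
HSPA5: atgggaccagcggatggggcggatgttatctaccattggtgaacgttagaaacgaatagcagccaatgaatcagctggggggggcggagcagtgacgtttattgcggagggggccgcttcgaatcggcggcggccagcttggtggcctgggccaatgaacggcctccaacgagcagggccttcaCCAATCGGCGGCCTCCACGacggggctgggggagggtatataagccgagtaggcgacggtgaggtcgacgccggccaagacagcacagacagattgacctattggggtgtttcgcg
CANX: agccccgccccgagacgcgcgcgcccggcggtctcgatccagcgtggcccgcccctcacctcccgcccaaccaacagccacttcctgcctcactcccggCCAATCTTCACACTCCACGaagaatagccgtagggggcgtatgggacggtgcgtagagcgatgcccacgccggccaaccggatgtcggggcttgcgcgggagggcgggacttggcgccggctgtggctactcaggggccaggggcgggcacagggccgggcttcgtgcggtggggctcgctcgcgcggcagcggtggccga
HSP90B1: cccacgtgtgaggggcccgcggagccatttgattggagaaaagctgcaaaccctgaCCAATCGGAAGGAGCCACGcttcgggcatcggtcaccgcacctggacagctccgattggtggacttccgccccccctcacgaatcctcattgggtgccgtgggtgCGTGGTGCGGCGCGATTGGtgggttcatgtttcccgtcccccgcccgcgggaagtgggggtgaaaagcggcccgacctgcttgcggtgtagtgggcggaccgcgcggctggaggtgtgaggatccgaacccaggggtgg
CALR: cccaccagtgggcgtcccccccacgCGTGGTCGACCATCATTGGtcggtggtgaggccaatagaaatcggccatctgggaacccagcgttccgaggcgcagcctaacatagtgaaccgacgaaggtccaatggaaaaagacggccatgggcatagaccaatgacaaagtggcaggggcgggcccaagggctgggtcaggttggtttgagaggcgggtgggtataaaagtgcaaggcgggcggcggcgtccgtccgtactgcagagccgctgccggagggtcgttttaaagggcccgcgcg

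**Figure D4:**
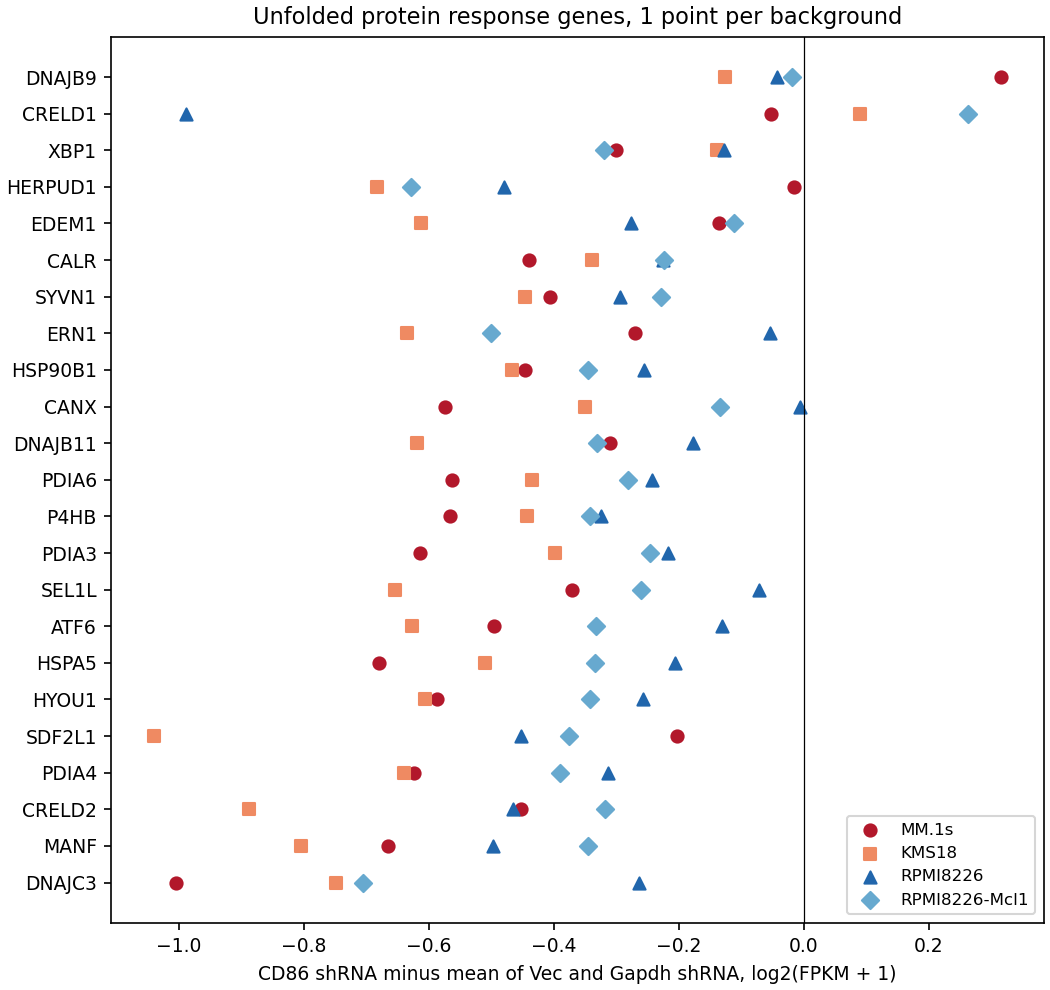
CD86 shRNA response of the 23 tested unfolded protein response genes, as log2(FPKM + 1) minus the mean of both controls (horizontal axis), 1 point per background, ordered by the mean response in MM.1s and KMS18. Most points lie left of 0 in every background, and in 14 genes both the MM.1s and the KMS18 point lie left of both RPMI8226 points.

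The rest of the secretory machinery followed in part. Of 28 genes of translocation, glycosylation and export, 13 fell in MM.1s and KMS18 and 1, SSR3, in the RPMI8226 backgrounds, where 3.91% and 0.813% of all genes tested fell. Their median response was -0.35 in MM.1s and -0.23 in KMS18, against -0.20 in RPMI8226 and -0.19 in RPMI8226-Mcl1. STT3A, a catalytic subunit of oligosaccharyltransferase, had 52.6 FPKM with CD86 shRNA in MM.1s, against 102 with Vec and 101 with Gapdh shRNA. In KMS18 STT3A had 106 FPKM, against 145 and 176, in RPMI8226 73.7, against 78.5 and 84.6, and in RPMI8226-Mcl1 66.5, against 79.5 and 90.5. It was below both controls everywhere, and the difference of -0.51 between the pairs did not pass (limma adjusted p = 0.283). SSR3, a subunit of the translocon-associated protein complex, fell by 0.61 in MM.1s and KMS18 and by 0.31 in the RPMI8226 backgrounds. In 12 of the 28 genes (42.9%) both MM.1s and KMS18 lay below both RPMI8226 backgrounds and in 5 (17.9%) both lay above, against 19.5% and 21.3% of all genes tested.

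Of 19 plasma cell identity genes, 7 fell in MM.1s and KMS18, namely SDC1, MZB1, TXNDC5, FKBP11, IRF4, FAM46C and ITGA4, and 5 in the RPMI8226 backgrounds, namely SDC1, MZB1, TXNDC5, FKBP11 and DERL3, where 3.91% and 0.813% of all genes tested fell. ITGA4, the alpha-4 integrin gene, had at most 1.11 FPKM in the RPMI8226 backgrounds and was tested through its level in MM.1s and KMS18. The median difference between the pairs was -0.01. IRF4, a transcription factor on which myeloma cells depend, had 68.7 FPKM with CD86 shRNA in MM.1s, against 101 with Vec and 100.1 with Gapdh shRNA. In KMS18 IRF4 had 57.4 FPKM, against 93.3 with Vec and 90.3 with Gapdh shRNA, in RPMI8226 36.3, against 38.7 and 35.2, and in RPMI8226-Mcl1 33.4, against 50.9 and 48.5. The RPMI8226-Mcl1 library thus went with MM.1s and KMS18 for IRF4, and RPMI8226 did not. PRDM1, the plasma cell repressor Blimp-1, had 23.9 FPKM with CD86 shRNA in KMS18, against 45.4 with Vec and 41.4 with Gapdh shRNA, and responses of 0.02 in MM.1s, -0.08 in RPMI8226 and -0.30 in RPMI8226-Mcl1, so its low value was that of 1 library. DERL3, a component of endoplasmic reticulum-associated degradation, had the opposite order, at -0.57 in MM.1s and -0.15 in KMS18, against -0.68 in RPMI8226 and -0.88 in RPMI8226-Mcl1.

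Among amino acid response genes, those regulated by ATF4, 7 of 27 fell in MM.1s and KMS18 (AARS, ALDH1L2, PHGDH, PSPH, SHMT2, SLC3A2 and SLC7A5) and 3 in the RPMI8226 backgrounds (CHAC1, PSPH and SLC7A5). By comparison 3.91% and 0.813% of all genes tested fell, and 16 of the 27 met the 5 FPKM limit. The medians did not follow the pairs, with -0.17 in MM.1s and -0.79 in KMS18, against -0.14 in RPMI8226 and -0.42 in RPMI8226-Mcl1, so that KMS18 stood apart. With limma-voom 18 fell in MM.1s and KMS18, against 654 of all 11313 genes tested. SLC3A2, the heavy chain that partners SLC7A5, had 41.2 FPKM with CD86 shRNA in MM.1s, against 53.8 with Vec and 50.6 with Gapdh shRNA, and 113 FPKM in KMS18, against 201 and 243. In RPMI8226 SLC3A2 had 80.7 FPKM, against 92.7 and 88.3, and in RPMI8226-Mcl1 93.9, against 121 and 120. SHMT2, the mitochondrial serine hydroxymethyltransferase, had responses of -0.31 in MM.1s and -0.65 in KMS18, against -0.20 in RPMI8226 and -0.23 in RPMI8226-Mcl1.

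MYC, a transcription factor of growth, had 287 FPKM with CD86 shRNA in MM.1s, against 338 with Vec and 325 with Gapdh shRNA. In KMS18 MYC had 293 FPKM, against 353 with Vec and 374 with Gapdh shRNA. In RPMI8226 MYC had 398 FPKM, against 401 and 403, and in RPMI8226-Mcl1 374, against 361 and 343. MYC fell by 0.26 in MM.1s and KMS18 (limma adjusted p = 0.0196), had 0.04 in the RPMI8226 backgrounds, and its difference of -0.30 did not pass (SE 0.08, limma adjusted p = 0.222). Of 29 MYC targets 2, CDK4 and TFRC, fell in MM.1s and KMS18, against 3.91% of all genes tested, and 0 were called in the RPMI8226 backgrounds. In 16 of the 29 (55.2%, against 19.5% of all genes tested) both MM.1s and KMS18 lay below both RPMI8226 backgrounds, although the medians, 0.05 in MM.1s and -0.12 in KMS18 against 0.13 in RPMI8226 and 0.07 in RPMI8226-Mcl1, were close. TFRC, the transferrin receptor, had responses of -0.59 in MM.1s and -0.51 in KMS18, against 0.12 in RPMI8226 and 0.05 in RPMI8226-Mcl1. Of 19 glycolysis genes 0 were called by limma in either pair, with 1 lower in MM.1s and KMS18 and 1 higher in the RPMI8226 backgrounds by limma-voom, and in 9 (47.4%, against 19.5% of all genes tested) both MM.1s and KMS18 lay below the other pair. ENO2, a glycolytic enolase below the 5 FPKM limit in KMS18, had -0.19 in MM.1s and -0.32 in KMS18, against 0.31 in RPMI8226 and 0.43 in RPMI8226-Mcl1. Of 23 cholesterol synthesis genes 4 fell in MM.1s and KMS18, among them CYP51A1, DHCR7 and MSMO1, and 1, MSMO1, fell in the RPMI8226 backgrounds. By comparison 3.91% and 0.813% of all genes tested fell. CYP51A1, lanosterol demethylase, had -0.41 in MM.1s and -0.58 in KMS18, against 0.08 in RPMI8226 and -0.04 in RPMI8226-Mcl1.

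Of 20 heat shock and chaperone genes, 5 fell in MM.1s and KMS18 (HSPA8, DNAJB1, DNAJA1, FKBP4 and CHORDC1), against 3.91% of all genes tested, and 0 in the RPMI8226 backgrounds. The median was -0.19 in MM.1s and -0.24 in KMS18, against 0.05 in RPMI8226 and -0.06 in RPMI8226-Mcl1, and in 10 of the 20 both MM.1s and KMS18 lay below both RPMI8226 backgrounds, against 19.5% of all genes tested. DNAJB1, an HSP40 co-chaperone, had 31.3 FPKM with CD86 shRNA in MM.1s, against 45.9 with Vec and 40.8 with Gapdh shRNA, and 28.8 in KMS18, against 45.4 and 45.4. In RPMI8226 DNAJB1 had 25.9 FPKM, against 28.1 and 24.1, and in RPMI8226-Mcl1 42.4, against 48.4 and 43.2. It was below both controls in MM.1s, KMS18 and RPMI8226-Mcl1 and between them in RPMI8226.

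No gene of the lists that follow passed the test of the pair difference. Of 15 interferon response genes 8 met the 5 FPKM limit. Of the 15, 1, IFI6, rose in MM.1s and KMS18, against 2.55% of all genes tested, and 0 were called in the RPMI8226 backgrounds. Their median was 0.21 in MM.1s and 0.09 in KMS18, against -0.13 in RPMI8226 and -0.20 in RPMI8226-Mcl1. In 10 of the 15 (66.7%) both MM.1s and KMS18 lay above both RPMI8226 backgrounds, against 21.3% of all genes tested, and in 0 both lay below. For the same 15 genes the median pair difference was 0.32 for CD86 shRNA and 0.20 for Gapdh shRNA minus Vec, so the controls held a difference of the same sign. IFI6, an interferon-induced mitochondrial protein below the 5 FPKM limit in MM.1s and KMS18, had 11.9 FPKM with CD86 shRNA in MM.1s, against 3.68 with Vec and 4.35 with Gapdh shRNA. In KMS18 IFI6 had 2.91 FPKM, against 0.704 with Vec and 2.06 with Gapdh shRNA, in RPMI8226 59.9, against 76.0 and 62.8, and in RPMI8226-Mcl1 23.3, against 29.3 and 21.0. Its level differed between the backgrounds far more than between shRNAs, and the difference in response, 1.22 (SE 0.32), did not pass (limma adjusted p = 0.226), while that of Gapdh shRNA minus Vec was 0.885. Next by p were OASL, at 2.54 FPKM or less in every library, with a difference of 0.72, and IFI35, with 0.37.

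FOXO factors and targets, which phosphatidylinositol 3-kinase signalling holds down through AKT, included 3 of 17 genes that rose in MM.1s and KMS18 (BCL2L11, PIK3IP1 and TNFSF10), against 2.55% of all genes tested, and 0 called in the RPMI8226 backgrounds. Of the 17 genes 10 met the 5 FPKM limit, and PIK3IP1 was below it in KMS18 and RPMI8226-Mcl1. In 12 of the 17 (70.6%, against 21.3% of all genes tested) both MM.1s and KMS18 lay above both RPMI8226 backgrounds, and the median response was 0.14 in MM.1s and 0.12 in KMS18, against -0.08 in RPMI8226 and 0.03 in RPMI8226-Mcl1. For the same 17 genes the median pair difference of Gapdh shRNA minus Vec was 0.18, against 0.22 for CD86 shRNA. After rescaling the libraries 1 of the 17 rose in MM.1s and KMS18, against 223 of all 11313 genes tested. FOXO4, a member of the factor family, had responses of 0.39 in MM.1s and 0.40 in KMS18, against -0.35 in RPMI8226 and -0.31 in RPMI8226-Mcl1. In KMS18 FOXO4 had 13.9 FPKM with CD86 shRNA, against 7.95 with Vec and 13.2 with Gapdh shRNA. Its response there thus rests on the low Vec library, and Gapdh shRNA minus Vec was 0.67. FOXO1, below the 5 FPKM limit outside KMS18, had the opposite order, with -0.04 in MM.1s and -0.22 in KMS18, against 0.18 in RPMI8226 and 0.36 in RPMI8226-Mcl1. BCL2L11, which encodes the pro-apoptotic protein BIM, had 53.6 FPKM with CD86 shRNA in MM.1s, against 42.4 with Vec and 40.3 with Gapdh shRNA. In KMS18 BCL2L11 had 12.6 FPKM, against 6.62 with Vec and 8.09 with Gapdh shRNA, in RPMI8226 34, against 27.4 and 28, and in RPMI8226-Mcl1 40.5, against 33.3 and 33.1. BCL2L11 was thus above both controls in all 4, rose by 0.54 in MM.1s and KMS18 (limma adjusted p = 0.0106) and had 0.28 in the RPMI8226 backgrounds (limma adjusted p = 0.212).

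Of the other apoptosis genes, BCL2 fell in both pairs, by 0.39 in MM.1s and KMS18 and by 0.57 in the RPMI8226 backgrounds. MCL1, a pro-survival relative and the gene overexpressed in RPMI8226-Mcl1, had 145 FPKM with CD86 shRNA in MM.1s, against 115 with Vec and 133 with Gapdh shRNA, and 119 in KMS18, against 82.0 and 85.7. In RPMI8226 MCL1 had 49.6 FPKM, against 51.2 and 54.5, and in RPMI8226-Mcl1 173, against 127 and 131. The RPMI8226-Mcl1 library was above both its controls too, but reads of the added and of the native gene may be mixed there and cannot be told apart. Neither pair passed (0.36 in MM.1s and KMS18, limma adjusted p = 0.0805, and 0.17 in the RPMI8226 backgrounds). BMF, a pro-apoptotic relative, had 0.37 in MM.1s and 0.36 in KMS18, against -0.08 in RPMI8226 and -0.34 in RPMI8226-Mcl1. The pair difference of BMF was 0.57 for CD86 shRNA and 0.38 for Gapdh shRNA minus Vec. PMAIP1, another pro-apoptotic relative, had the opposite order, with -0.14 in MM.1s and -0.09 in KMS18, against 0.23 in RPMI8226 and 0.37 in RPMI8226-Mcl1. Of 9 such relatives, both MM.1s and KMS18 lay above both RPMI8226 backgrounds in 3 (33.3%) and below in 1 (11.1%). Of all genes tested 21.3% and 19.5% did. Among 23 p53 targets, PLK2, FAS and ZMAT3 rose in MM.1s and KMS18 and ZMAT3 rose in the RPMI8226 backgrounds, where 2.55% and 0.141% of all genes tested rose. All 3 are outside the genes described, and PLK2, a polo-like kinase, had at most 0.0872 FPKM in the RPMI8226 backgrounds, so it was tested through its level in MM.1s. The response of PLK2 was 0.44 in MM.1s, with 14.3 FPKM, against 8.63 with Vec and 12.3 with Gapdh shRNA. It was 1.30 in KMS18, on 34 reads, against 2 with Vec and 4 with Gapdh shRNA.

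Ribosomal protein and respiratory chain genes had small responses. Of 32 cytosolic ribosomal protein genes 5 rose in MM.1s and KMS18 (RPL22, RPL23, RPS25, RPS3 and RPS6), against 2.55% of all genes tested, and 0 were called in the RPMI8226 backgrounds. In 21 of the 32 (65.6%, against 21.3% of all genes tested) both MM.1s and KMS18 lay above both RPMI8226 backgrounds, with medians of 0.24 in MM.1s and 0.07 in KMS18, against -0.04 in RPMI8226 and 0.03 in RPMI8226-Mcl1. Of 30 respiratory chain genes 4 rose in MM.1s and KMS18 (among them COX6C, NDUFA1 and UQCRFS1), again against 2.55%, and 0 were called in the RPMI8226 backgrounds, and 16 (53.3%, against 21.3%) were separated in the same way. The median pair difference of Gapdh shRNA minus Vec was 0.09 in the ribosomal protein list, against 0.18 for CD86 shRNA. In the respiratory chain list it was -0.01, against 0.11 for CD86 shRNA. After rescaling the libraries 1 of the 32 and 1 of the 30 rose in MM.1s and KMS18, and with limma-voom 15 and 9. Of all 11313 genes tested 223 rose there after rescaling and 812 with limma-voom. Ribosomal protein and respiratory chain genes are short: 23 of the 32 and 19 of the 30 had 2021 bases of exon or less, as had 3 of the 23 unfolded protein response genes. Over the genes described the median pair difference was 0.06 in those of 2021 bases or less and -0.06 in the equally many longest ones. In MM.1s alone the median response was 0.14 in the short genes and -0.03 in the long ones, against -0.01 and 0.00 in KMS18. The part of transcript length in these results was not tested. Reads of ribosomal protein genes may also be shared with their processed pseudogenes.

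**Figure D5:**
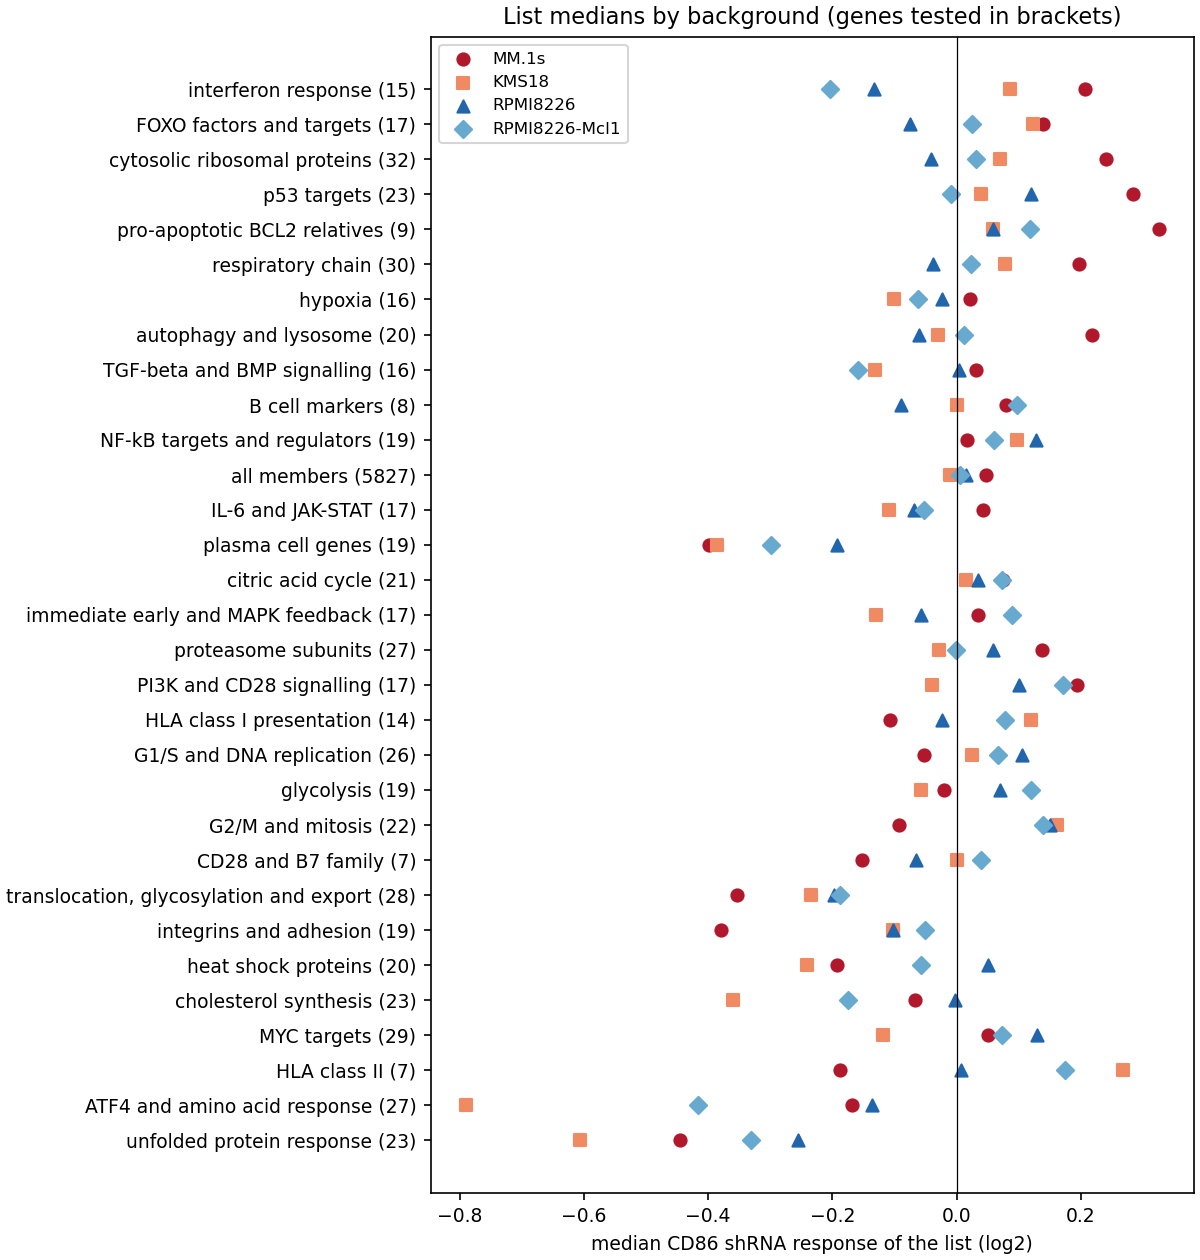
Median CD86 shRNA response on the log2 scale (horizontal axis) of each gene list with at least 7 tested genes and of the 5827 genes described, 1 point per background, ordered by the median difference between the pairs, with the number of tested genes in brackets. The interferon list has MM.1s and KMS18 right of 0 and both RPMI8226 backgrounds left of it, and the unfolded protein response list has all 4 points left of 0.

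The remaining lists held few calls. Of 19 integrin and adhesion genes 4, ITGA4, which is low in the RPMI8226 backgrounds as given above, ITGB1, ITGB7 and SDC1, fell in MM.1s and KMS18 and ITGB1 and SDC1 fell in the RPMI8226 backgrounds. By comparison 3.91% and 0.813% of all genes tested fell, and 5 of the 19 met the 5 FPKM limit. ITGB7, the partner of the alpha-4 integrin and a target of MAF, had 44.9 FPKM with CD86 shRNA in KMS18, against 73.2 with Vec and 96.6 with Gapdh shRNA, and 1115 in MM.1s, against 1348 and 1591. In RPMI8226 ITGB7 had 553 FPKM, against 783 and 797, and in RPMI8226-Mcl1 487, against 615 and 689, so that it was below both controls whatever its level. TGFB1 and its receptor gene TGFBR2 both fell in MM.1s and KMS18, by 0.96 and 1.39, and TGFBR2, below the 5 FPKM limit in RPMI8226 and RPMI8226-Mcl1 controls, fell by 0.82 in the RPMI8226 backgrounds. TGFB1 had -0.44 in the RPMI8226 backgrounds (limma adjusted p = 0.0613) and lay below both controls in each of them. In the CD28 and B7 family CD86 was the only call among 7 genes. CD28 itself had a response of -0.29 in MM.1s and 0.06 in KMS18, against -0.08 in RPMI8226 and 0.04 in RPMI8226-Mcl1. WIPI1, an autophagy protein, fell by 0.72 in the RPMI8226 backgrounds and had -0.16 in MM.1s and KMS18. Proliferation lists had 1 call in MM.1s and KMS18 (CCNE2, which rose) among 26 genes of DNA replication, against 2.55% of all genes tested, and 0 among 22 of mitosis. MKI67 had -0.31 in MM.1s and 0.14 in KMS18, against 0.15 in RPMI8226 and 0.20 in RPMI8226-Mcl1. GAPDH, lowered by the Gapdh shRNA, makes that control unfit for its own gene: it had 1099, 1197, 1192 and 1054 FPKM with CD86 shRNA in MM.1s, KMS18, RPMI8226 and RPMI8226-Mcl1, against 1187, 1241, 1172 and 985 with Vec and 630, 133, 402 and 210 with Gapdh shRNA.

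To ask whether a pair difference under CD86 shRNA differs from the same difference under CD28 shRNA, the 2 shRNAs were contrasted over all 16 libraries, where the controls cancel. Of 11349 genes 4 passed (0.0352%), none of them among the 5827 described, and 1324 had an unadjusted p under 0.05. PKIA, an inhibitor of protein kinase A, had a contrast of 2.08 (SE 0.21, limma adjusted p = 0.00264) and 0 reads in all libraries of both RPMI8226 backgrounds. CACNG4, a calcium channel subunit, had -1.47 (SE 0.22) and 0 reads in all libraries of MM.1s and KMS18. For both genes the contrast is thus CD86 minus CD28 shRNA within the expressing pair alone, and no difference between the pairs could be measured. OAS2, an interferon-induced oligoadenylate synthetase, had 1.56 (SE 0.20) and SEPP1, selenoprotein P, 1.27 (SE 0.19). The count was 30 without MM.1s, 148 without KMS18, 5 without RPMI8226 and 2 without RPMI8226-Mcl1. Over the 24 genes named above, this contrast had limma adjusted p of 0.0642 to 0.803, so for none of them did the pair difference under CD86 shRNA pass as differing from that under CD28 shRNA.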

How the data were processed

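RNA was isolated with Qiagen RNeasy and sequenced from TruSeq mRNA libraries, per the labels' protocols. The authors deposited 1 table of FPKM values for 23459 genes and 16 libraries with exon lengths, per the file headers. The deposited table also holds the authors' log2 fold changes, log2 depth-scaled counts, likelihood ratio scores and p-values of their own comparisons, which were not used. Among the tools in the submitters' processing notes are edgeR 3.12.1, R 3.2.2, TopHat2 2.0.13 and Picard, and mm9, GRCh37 and hg19 are the builds there, with no step named.

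Deposited FPKM values were taken as log2(FPKM + 1), a scale that understates changes of low genes, and tested in R 4.3.3 with limma 3.58.1, its variance prior following the mean level. The fit held 12 libraries and the 11313 genes averaging 1 FPKM or more, with terms for background and for CD86 shRNA in each pair of backgrounds. Its 6 residual degrees of freedom came from Vec against Gapdh shRNA (4) and from the responses within each pair (2). P-values are two-sided, adjusted by Benjamini-Hochberg over all genes tested, with a threshold of 0.05, and reflect the spread of these lines and libraries alone, since the labels name no separate cultures. FPKM times exon length gave whole reads for 100% of values within 0.02 of a read, which served for depth and for limma-voom. Each CD86 shRNA library was set against the controls of its own background, which are the same line by the labels. The scripts were tested on simulated data. Genes named are 15 taken whatever their result, 12 in each direction by smallest p for the pair difference among those described, up to 3 or 4 of each of 35 lists, and those said to be picked after their values were seen or to be the calls of a list. The 12 in each direction were taken only from genes whose MM.1s and KMS18 responses both lay on 1 side of both RPMI8226 responses. Members and lists were chosen with earlier results of these data known. Promoters were matched by symbol. Results of some genes are not reported here.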

Additional observations from a re-analysis of the deposited data

Results flagged for a closer look

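The 4 genes past the test of CD86 minus CD28 shRNA between the pairs are given here because they passed it, although in 2 of them, PKIA and CACNG4, the gene had reads in 1 pair alone, so no difference in effect between the pairs could be measured. PKIA had a contrast of 2.08, with 5.99 FPKM under CD86 shRNA and 0.385 under CD28 shRNA in MM.1s, and 9.67 and 1.99 in KMS18, and 0 reads in all 8 libraries of the RPMI8226 backgrounds, so the contrast is CD86 minus CD28 shRNA within MM.1s and KMS18. OAS2 had a contrast of 1.56, with 2.73 FPKM under CD86 shRNA and 14 under CD28 shRNA in RPMI8226, 0.542 and 4.15 in RPMI8226-Mcl1, and 6.32 and 7.96 in MM.1s. SEPP1 had a contrast of 1.27, with 17.7 FPKM under CD86 shRNA and 30.4 under CD28 shRNA in RPMI8226, 9.09 and 21.2 in RPMI8226-Mcl1, and 49.3 and 38.4 in KMS18. CACNG4 had a contrast of -1.47, with 22 FPKM under CD86 shRNA and 9.67 under CD28 shRNA in RPMI8226, 34.9 and 9.07 in RPMI8226-Mcl1, and 0 reads in all libraries of MM.1s and KMS18, so the contrast is that of the RPMI8226 backgrounds alone.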

How the results depend on the processing

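The pair difference under CD86 shRNA called 0 genes as reported, with pseudocount 0.5, without the filter on low values, among the described genes alone, after rescaling, on the 4 responses and with either control alone; it called 6 with pseudocount 5, 30 with limma-voom, 2 with 1 response per background, and 0 to 2 when a background was left out. The 730 calls in MM.1s and KMS18 became 480 without the filter, 1466 with limma-voom, 0 on the 4 responses, 36 with Vec alone, 0 with Gapdh shRNA alone, and 263 to 371 when a background was left out. The 108 calls in the RPMI8226 backgrounds became 177 among the described genes alone, 309 with limma-voom, 0 on the 4 responses, 0 with Vec alone, 0 with Gapdh shRNA alone, and 1 to 145 when a background was left out. With a single control there are fewer libraries and degrees of freedom, and the other causes were not tested. Without the block for background, that is with no pairing of the libraries of a background, the counts were 0 for the pair difference, 4 in MM.1s and KMS18 and 0 in the RPMI8226 backgrounds. The contrast of Gapdh shRNA with Vec called 1 gene with pseudocount 0.5. The contrast with CD28 shRNA called 2 genes with pseudocount 0.5, 34 with pseudocount 5, and 2 to 148 when a background was left out. The fall of CD86 itself in MM.1s and KMS18, -1.06 as reported, lost its call without the filter, on the 4 responses and without the block for background (-1.06 in each), with Vec alone (-0.76), with Gapdh shRNA alone (-1.36) and when a background was left out (-1.22 to -0.91). Its pair difference, -0.52 as reported, was -0.19 with Vec alone and -0.86 with Gapdh shRNA alone. Over single genes and settings, 5484 of 6225 values kept their direction and side of the threshold, 526 lost the call, 77 gained it and 138 changed sign without a call. With 1 library per combination and few reads for genes such as CD86, small differences were not detectable at this depth.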

Other observations

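Small nucleolar RNA genes gave some of the widest differences on few reads and were picked after their values were seen. SNORD38A had 5 reads with CD86 shRNA in MM.1s, against 4 with Vec and 8 with Gapdh shRNA, and 11 in KMS18, against 6 and 9. In RPMI8226 it had 4 reads, against 12 and 9, and in RPMI8226-Mcl1 1, against 13 and 11, and it was called in the RPMI8226 backgrounds (-2.14, limma adjusted p = 0.032) with a pair difference of 2.31 that did not pass. SNORD28 had 9 reads with CD86 shRNA in MM.1s, against 16 with Vec and 15 with Gapdh shRNA, and 3 in KMS18, against 13 and 17.

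CHAC2, a gamma-glutamylcyclotransferase that degrades glutathione, rose in the RPMI8226 backgrounds by 0.68 (limma adjusted p = 0.038) and not in the other pair. It had 17.8 FPKM with CD86 shRNA in RPMI8226, against 9.40 with Vec and 10.8 with Gapdh shRNA, and 21.6 in RPMI8226-Mcl1, against 13.2 and 14.6. In MM.1s it had 22.1 FPKM, against 29.7 and 20.8, and in KMS18 25.8, against 30.1 and 30.5. The pair difference of -0.88 did not pass (limma adjusted p = 0.167). SAT1, the rate-limiting enzyme of polyamine breakdown, rose in MM.1s and KMS18 by 0.97 (limma adjusted p = 0.0095), with 16.7 FPKM with CD86 shRNA in MM.1s, against 7.12 with Vec and 7.26 with Gapdh shRNA, and 19.0 in KMS18, against 13.6 and 7.71. In RPMI8226 it had 65.3 FPKM, against 66.9 and 55.8, and in RPMI8226-Mcl1 88.5, against 79.7 and 73.5, and the pair difference was 0.82 (limma adjusted p = 0.286). CHAC2 and SAT1 were picked after their values were seen.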
